A study of Drosophila melanogaster with 4 samples.

Results

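The X chromosome of Drosophila melanogaster carried 1052 clusters enriched for H3K36me2 outside the 2 Mb next to its centromere, of 6396 enriched clusters in the combined list of the series. H3K36me2 is histone H3 dimethylated at lysine K36. A cluster was counted when the combined list placed it on X, did not name it as depletion, and put its midpoint inside the window from position 1 to 20422827 (FlyBase r5). Clusters of every length were kept. The X sequence is 22422827 bp long in this release. Another 57 X clusters lay beyond the limit and none crossed it. The last cluster inside ran from 20386837 to 20391666 and the first outside from 20528966 to 20535676. None of the 16 regions that the combined list names as depletion lay on X.

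The study mapped H3K36me2 by chromatin immunoprecipitation and sequencing (ChIP-seq) in ML-DmBG3-c2 cells. This cultured line came from the central nervous system of larvae in the third instar, has the genotype y v f mal, and is of unknown sex per the labels. All samples came from this line and were fixed with 1.8% formaldehyde for 10 min: 2 ChIP replicates made with a mouse monoclonal antibody against H3K36me2, and 2 input DNA replicates. There was no second genotype, treatment or tissue. The descriptions of some samples go against their titles: that of ChIP replicate 1 speaks of input DNA, and those of input replicate 1 and ChIP replicate 2 speak of both kinds of DNA. Groups were taken from titles, and which reading is right was not tested.

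Methyl groups on lysine K36 of histone H3 are added in steps. In flies, Ash1 and the NSD-family enzyme Mes-4 are known for dimethylation, and Set2, which travels with elongating RNA polymerase II, for trimethylation within transcribed genes. In male flies the MSL complex raises transcription of the X, and its spread over active genes is known to use the trimethylated form. No annotation of release 5 was used here, so clusters are described by position and are not assigned to genes, and no sequence is shown.

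The clusters covered 4.78 Mb of the X window, or 23.4%. The replicate lists, whose shortest cluster was 1301 bp against 1001 bp in the combined list, held 919 clusters over 4.29 Mb (21.0%) in replicate 1 and 902 clusters over 4.00 Mb (19.6%) in replicate 2, a covered share of 20.3% ± 1.01 (SD, n = 2). Density was 51.5 clusters per Mb in the combined list and 44.6 ± 0.589 in the replicates (45.0 and 44.2). The combined list exceeded each replicate list in number of clusters and in covered sequence. Read depth is unknown, because the lists give regions and the authors' scores without counts. With n = 2 lists of a single group no test over samples was possible, and the values below are descriptions.

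Most X clusters were a few kilobases long. Their median length was 2900.5 bp in the combined list, and the replicates had 3094 and 2942 bp. In the combined list, lengths ran from 1283 bp at the 5th percentile to 13203 bp at the 95th. Clusters of 2 to 5 kb were the most numerous class, with 511 of 1052 (48.6%), and held 33.2% of the covered sequence. Another 271 (25.8%) were under 2 kb and held 8.91%, and 181 (17.2%) were 5 to 10 kb long and held 26.5%. The share under 2 kb was 18.6% in replicate 1 and 22.8% in replicate 2, below the combined list in both. Clusters of 10 kb or more numbered 89 (8.46%), close to the 9.21% of the whole combined list, and held 31.4% of the covered X sequence. They held 29.6% in replicate 1 and 28.4% in replicate 2.

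**Figure D1:**
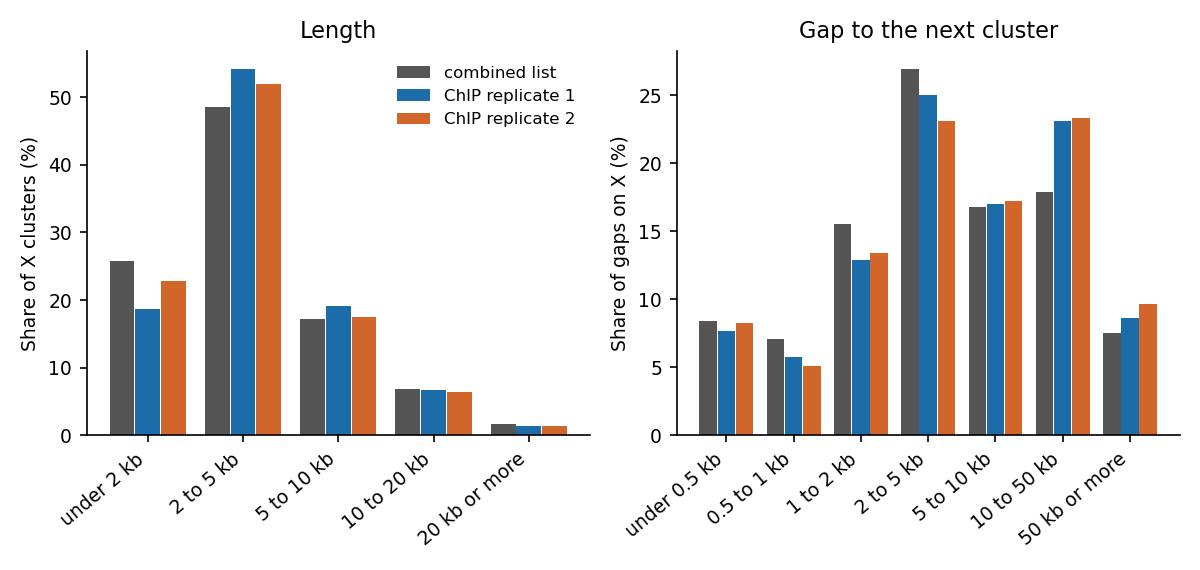
Length classes of X clusters (left, % of clusters) and classes of the gap to the next cluster (right, % of gaps) in the combined list and each ChIP replicate. Lengths of 2 to 5 kb were the most common class in all 3 lists, at 48.6% of combined clusters, and 1.62% of combined clusters reached 20 kb.

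Coverage rose and fell along X, and the replicates followed each other. Over the 20 full 1 Mb blocks the mean of the replicates ran from 12.8% to 30.1%, a ratio of 2.36, with a median of 19.7%. The SD between replicates was 0.861 percentage points in the median block and 3.12 at most. The largest SD was in the block from 14000001 to 15000000, at 22.7% in replicate 1 and 18.3% in replicate 2. Replicate 1 was the higher list in 17 of 20 blocks. Across these blocks the replicates had a Pearson r of 0.96 and a Spearman rho of 0.94. The blocks lie on one chromosome and neighbours are not independent, so the correlations carry no p.

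The most covered block ran from 11000001 to 12000000, at 30.5% in replicate 1, 29.8% in replicate 2 and 34.8% in the combined list. It also had the highest density, with 76 combined clusters. The next was 2000001 to 3000000 at 30.8% and 27.6%, and then 8000001 to 9000000 at 26.6% and 26.2%. The order of the first 2 differed between the replicates, and the block from 12000001 to 13000000, at 27.7% and 24.3%, spanned the values of the third. The least covered block, from 4000001 to 5000000, had 13.5% and 12.0%, and 31 combined clusters, the fewest of any full block. It was followed by 18000001 to 19000000 at 13.4% and 12.4% and by 5000001 to 6000000 at 14.8% and 13.0%. The replicate values of these 3 blocks overlapped. The centromere-facing end of the window, from 20000001 to 20422827, also had a low covered share, at 14.6% and 14.3% over 0.423 Mb. Its combined clusters were not few, at 52.0 per Mb beside 51.5 in the whole window, but none reached 10 kb.

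Cluster number varied more than cluster length between blocks. Density ran from 31 to 76 combined clusters per Mb and the median length of a block from 2275.5 to 4009 bp. In the combined list, covered share had a Spearman rho of 0.77 with density and of 0.62 with the number of clusters of 10 kb or more, over the 20 blocks. Density and median length had a rho of -0.21. Each of these measures comes from the same clusters, so they are descriptions of one list. Divided in 3 equal parts, X was covered over 20.1% ± 1.49 in the part farthest from the centromere, 22.7% ± 0.838 in the middle and 18.0% ± 0.692 in the nearest (SD, n = 2). The middle part was the highest in each replicate, at 23.3% and 22.2%.

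**Figure D2:**
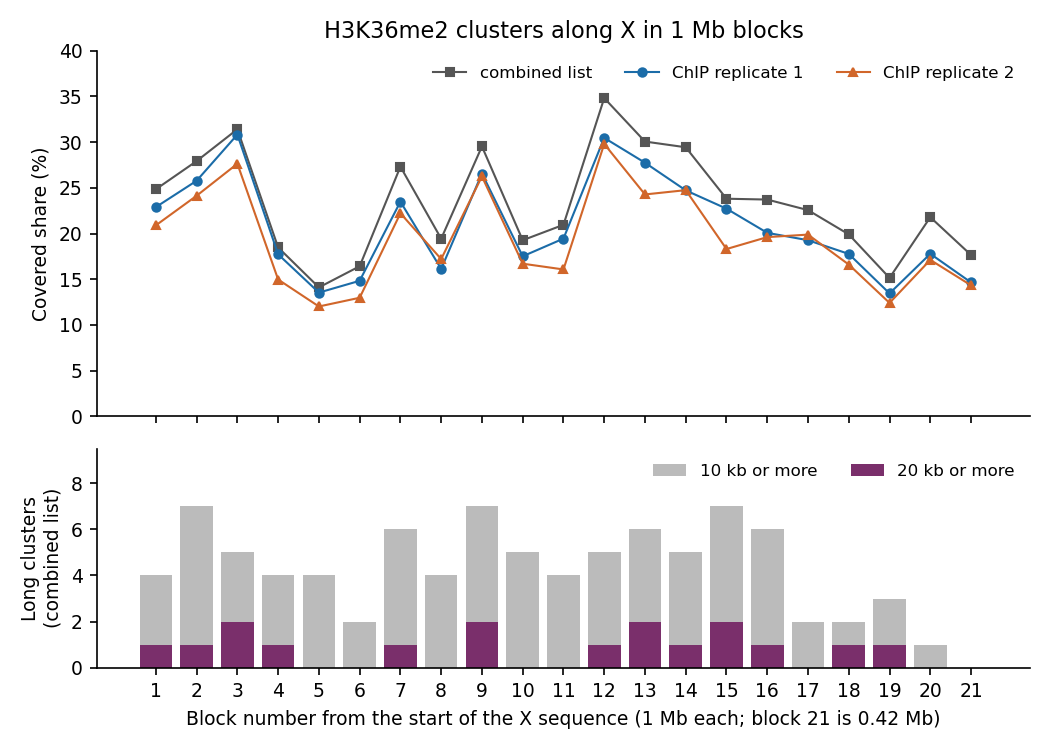
Covered share (%) of consecutive 1 Mb blocks of X in the combined list and each ChIP replicate (upper), and the number of combined clusters of 10 kb or more in each block, with those of 20 kb or more overlaid (lower). The replicate lines run together from 12.8% (mean of replicates) in block 5 to 30.1% in block 12, and 7 of the 20 full blocks hold no cluster of 20 kb or more.

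Clusters on X were unevenly spaced, with many short gaps and a few very long ones. The median gap between neighbours was 3913 bp in the combined list, against a mean of 14851 bp. The replicates had medians of 4768.5 and 5026 bp. Gaps under 5 kb made up 608 of 1051 (57.8%) but held 8.01% of the sequence between clusters. Gaps of 50 kb or more were 79 (7.52%) and held 57.6% of it. Those shares were 57.3% in replicate 1 and 60.4% in replicate 2, so most uncovered X sequence lay in long gaps in every list.

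Neighbouring clusters formed runs. Joining clusters less than 5 kb apart gave 444 runs in the combined list, 448 in replicate 1 and 453 in replicate 2. Of the combined runs, 192 were a lone cluster and 53 held 5 clusters or more, and those 53 contained 331 clusters (31.5%). The run with the most members had 12 clusters. The number of runs hardly differed between lists, while the share of clusters in runs of 5 or more fell to 24.5% and 18.8% in the replicates, whose lists are shorter. On the autosomal arms 33.9 to 41.5% of combined clusters lay in such runs, 22.9 to 29.5% in replicate 1 and 24.6 to 31.0% in replicate 2. X was below them in the combined list and replicate 2, and among them in replicate 1.

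A cluster's length said little about its neighbour on X. The lengths of successive clusters had a Spearman rho of 0.013 in the combined list, -0.018 in replicate 1 and 0.032 in replicate 2. The nearest neighbour of clusters of 10 kb or more was a median of 1426 bp away in the combined list, and that of clusters under 2 kb 2150 bp. The replicates had 2068 and 2716 bp for the long clusters and 2774 and 2381.5 bp for the short ones, so the order of the 2 classes differed between replicates.

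The longest run stretched over 113.1 kb from 12120005 to 12233135 and joined 7 clusters. Clusters covered 93.3% of it in the combined list, 88.6% in replicate 1 and 74.5% in replicate 2. The second, from 8615632 to 8727892, spanned 112.3 kb with 6 clusters and was covered over 93.5% and 92.1% in the replicates. Each of these runs held 2 clusters of 20 kb or more, and the longest members were 60.6 and 46.7 kb. The third spanned 65.4 kb from 11813960 to 11879318, around a cluster of 50.4 kb, and was covered over 91.4% and 88.9%. The other two of the 5 longest runs were built from shorter pieces. From 13652670 to 13715978, 63.3 kb held 8 clusters of at most 17.5 kb, and 68.7% and 73.3% were covered. From 1989810 to 2052781, 62.97 kb held 9 clusters of at most 14.7 kb, and 74.6% and 69.4% were covered.

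Some of the runs were separated by long stretches with no cluster. The combined list left 40 stretches of at least 100 kb, which made up 30.2% of the window (6.17 Mb). Replicate 1 had 41 such stretches over 31.8% and replicate 2 had 41 over 32.1%. The longest ran from 19802628 to 20051699 (249.1 kb), followed by 18025118 to 18265496 (240.4 kb), 9677770 to 9903963 (226.2 kb), 10772217 to 10988595 (216.4 kb) and 14161207 to 14366833 (205.6 kb). No whole replicate cluster lay inside any of these 5, and clusters reaching in from the sides took at most 82 bp in either list. Of the 40 stretches, 39 contained no whole cluster of either replicate, and 1 contained 1 cluster of replicate 1. The 80 clusters that border the 40 stretches had a median length of 2691.5 bp, and 8 of them were 10 kb or longer. A stretch without clusters is one where no region passed the authors' threshold, at unknown depth.

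The broad end of the distribution was made up of 17 clusters of 20 kb or more, 1.62% of X clusters beside 2.27% of the whole combined list. On the autosomal arms outside the 2 Mb next to the centromere the share was 1.74%. The 17 X clusters covered 0.516 Mb, which was 10.8% of the cluster sequence and 2.53% of the window. The limit falls among close lengths, with 20017 bp just inside and 19992 bp just outside. Replicate 1 had 13 X clusters of this length and replicate 2 had 12. All 17 overlapped both replicate lists, as did 100% of the clusters of this length in the whole combined list. Coverage of the 17 in replicate 1 was 93.6% at the lowest and 99.5% at the median, and in replicate 2 it was 86.8% and 97.9%.

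Most broad domains were single clusters in each replicate, and the others broke at a few places. Of the 17, 11 corresponded to 1 cluster in each replicate. For these 11, the starts in the replicates differed by a median of 90 bp and the ends by 81 bp, with maxima of 4095 and 2443 bp. Replicate 1 kept 13 of the 17 whole and replicate 2 kept 11.

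The longest domain, from 12172540 to 12233135 (60.6 kb), was a single cluster of 60.3 kb in replicate 1. In replicate 2 it was a cluster of 55.5 kb and a second, shorter one near its end. The replicate scores were 2.82 and 2.82. The domain from 11828939 to 11879318 (50.4 kb) was nearly identical in the lists, at 50.2 kb in each replicate, and scored 3.04 and 3.15 there. It was the third highest X cluster by score. The domain from 8652099 to 8698797 (46.7 kb) measured 46.5 kb in each replicate, with lower scores of 2.22 and 2.04. The score is the authors' own value per region, its scale is not stated, and it serves here to order clusters within a list.

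The next 3 in length were alike in size but not in score. From 2368096 to 2400932 (32.8 kb) the cluster reached 36.8 kb in replicate 1 and 32.0 kb in replicate 2, and scored 2.38 and 2.53. In replicate 1 it started at 2364332, which was 4095 bp before the start in replicate 2 at 2368427. From 2994373 to 3025665 (31.3 kb) the scores were 2.10 and 1.92. From 618976 to 650250 (31.3 kb) they were 2.97 and 3.02, the higher of this group in each replicate.

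The domain from 12120005 to 12149166 (29.2 kb) was the most fragmented of the 17. It corresponded to 3 clusters in replicate 1 and 5 in replicate 2, the longest of them 12.2 and 13.4 kb. Its score of 1.40 was the lowest of the 17 and still above 71.8% of X clusters. The remaining 3 of the 10 longest were single in both replicates: 1531142 to 1559767 (28.6 kb, scores 2.66 and 2.64), 13463521 to 13489956 (26.4 kb, 2.90 and 2.98) and 14678253 to 14703822 (25.6 kb, 2.20 and 2.27). The last was shorter in replicate 2, at 23.0 kb.

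**Figure D3:**
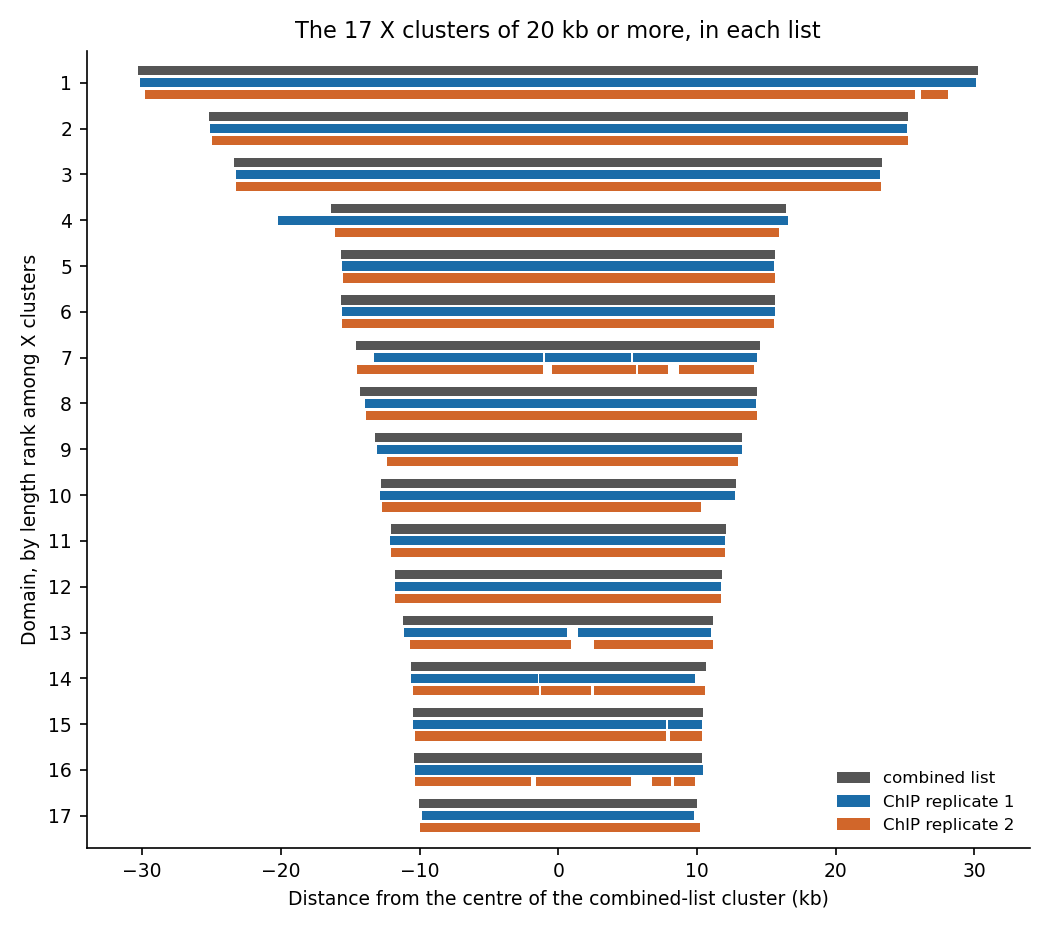
The 17 X clusters of 20 kb or more, ranked by length, each drawn as its combined-list cluster with the overlapping clusters of each ChIP replicate, in kb from the centre of the combined cluster. In 11 domains each replicate has 1 unbroken bar, and the domain of rank 7 breaks into 3 and 5 clusters, some with gaps too narrow to see at this scale.

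Broad domains were scattered over the window. The distance between the centres of successive domains had a median of 875.0 kb, from 42.4 to 3466 kb. Of the 17, 13 had another cluster less than 5 kb away on at least 1 side, beside 860 of all 1052 X clusters (81.7%). In 2 of the 13 this held on both sides, and 3 of the 17 bordered a gap of 50 kb or more. Joining clusters less than 1 kb apart raised the number of domains of 20 kb or more from 17 to 28.

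The highest-scoring X clusters found in both replicates were not only the longest ones. They ran from 16461214 to 16480434 (19.2 kb, replicate scores 3.14 and 3.25), 10262137 to 10276882 (14.7 kb, 3.17 and 3.13), 11828939 to 11879318, 618976 to 650250, and 18533317 to 18540770 (7.45 kb, 3.04 and 2.96). The order of the first 2 differed between the replicates. Over all X clusters, length and score had a Spearman rho of 0.84 in the combined list. The median score rose through the length classes, from 0.39 under 2 kb to 0.88, 1.59, 2.06 and 2.39 at 20 kb or more.

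Of the 1052 X clusters, 769 overlapped a cluster of each replicate by at least 1 bp, or 73.1% (95% Wilson interval 70.3 to 75.7%), beside 73.4% of the whole combined list. The combined list was made from the replicates, so this is no independent check, and the intervals cover counting error only. Replicate 1 alone matched 110 (10.5%) and replicate 2 alone 67 (6.37%), beside 8.72% and 7.50% of the whole list. No replicate cluster overlapped 106 of them, or 10.1% (8.40 to 12.0%), beside 10.4% of the whole list. With at least 50% of a cluster's length covered in each replicate, 754 clusters (71.7%) counted as shared, beside 72.1%. In sequence, 88.6% of the X clusters lay in replicate 1, 83.4% in replicate 2 and 78.0% in both. Along X, the share of clusters in both replicates ran from 57.6% in the block from 6000001 to 7000000 to 88.3% in the block from 2000001 to 3000000.

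Overlap went with length and score. Among clusters under 2 kb, 41 of 271 (15.1%) were in both replicates. That share was 91.0% at 2 to 5 kb and 96.1% at 5 to 10 kb, and all 89 clusters of 10 kb or more were in both. In the whole combined list the share also rose with length, with 18.7% under 2 kb, 90.9% at 2 to 5 kb, 99.0% at 5 to 10 kb, 99.5% at 10 to 20 kb and 100% from 20 kb. Median length was 3721 bp for clusters in both replicates, 1787 bp for replicate 1 only, 1767 bp for replicate 2 only and 1364.5 bp for neither. Median score was 1.13, 0.46, 0.38 and 0.42 in the same order. In the lowest 25% of X scores, 23.2% were in both and 31.2% in neither, and in the highest 25% the shares were 97.3% and 1.90%. Shares by score were not taken over the whole combined list, so they do not show whether X differs from it. The shortest cluster in the replicate lists is 1301 bp. The combined list had 56 shorter ones on X (5.32%, beside 6.94% of the whole list), 43 of them in neither replicate and 0 in both.

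**Figure D4:**
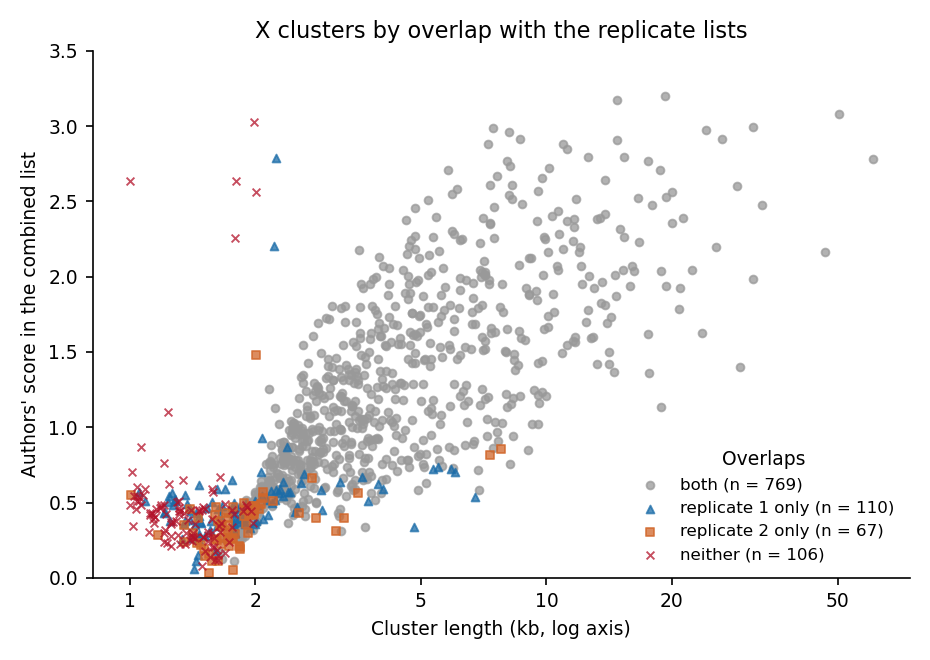
Length (kb, log axis) against the authors' score for the 1052 X clusters of the combined list, marked by which replicate lists they overlap. Clusters in both replicates start at 1648 bp, and those in neither end at 2008 bp, most of them with scores below the X median of 0.85.

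Boundaries lay close together for clusters with a single counterpart. For 693 clusters (65.9%), 1 combined cluster matched 1 cluster in each replicate and no other. These measured 3472 bp at the median in the combined list, 3200 bp in replicate 1 and 2962 bp in replicate 2. The combined cluster was longer than that of replicate 1 in 593 of 693 and longer than that of replicate 2 in 670. Between the replicates the median distance was 125 bp at starts and 127 bp at ends, and 65.4% of starts and 64.9% of ends lay within 200 bp. Both ends did so for 44.7%. Elsewhere a combined cluster joined several: 39 held 2 or more clusters of replicate 1 and 52 held 2 or more of replicate 2.

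Compared directly, the replicates shared 3.73 Mb of X, or 87.0% of the replicate 1 sequence and 93.3% of the replicate 2 sequence. Of the replicate 1 clusters on X, 802 (87.3%) overlapped replicate 2, and of those of replicate 2, 831 (92.1%) overlapped replicate 1. The direct comparison was made for X only, so it does not show whether X differs from the whole replicate lists. Only 7 replicate 1 clusters, the longest 2001 bp, and 0 replicate 2 clusters were outside the combined list. Across the 769 clusters in both, the replicate scores had a Spearman rho of 0.93, as a description over clusters of one chromosome.

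A few short clusters stood apart by score, and the limits used to list them were set after the values were seen. Of 428 X clusters under 2.5 kb, 7 scored above 2, while the others reached at most 1.48 and the median of all 428 was 0.46. None of the 7 was in both replicates, 5 were in neither and 2 in replicate 1 only. The highest ran from 15948141 to 15950133 (1993 bp) and scored 3.02, the fourth highest score on X, with no overlap in either replicate. Before it, in the block from 15000001 to 16000000, lay 2 others of the 7, 2204 bp apart. One ran from 15927854 to 15930095 (score 2.79) and scored 2.97 as a 2348 bp cluster of replicate 1. The other ran from 15924649 to 15925649 (1001 bp, score 2.64). The rest lay from 13897711 to 13899505 (2.64), 8593765 to 8595772 (2.56), 19696683 to 19698473 (2.26) and 12276078 to 12278296 (2.20, in replicate 1 only). The clusters at 13897711 and 15924649 carried the same score to every deposited digit. In a count added after this was seen, 26 of 1052 X clusters (2.47%) shared an exact score with another X cluster: 11 of the 106 in neither replicate (10.4%) and 8 of the 769 in both (1.04%). The cluster at 8593765 was also the longest of those in neither list (2008 bp). The next longest without a high score ran from 7521449 to 7523429 (score 0.37), 8166794 to 8168743 (0.44) and 19800715 to 19802627 (0.47). Among 1887 clusters under 2.5 kb on the autosomal arms, 5 scored above 2, all of them in neither replicate.

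X was set beside 2L, 2R, 3L and 3R, each without the 2 Mb next to its centromere, and the size and direction of the difference in covered share depended on which clusters and which sequence were counted. The covered share was 20.3% ± 1.01 on X and 19.8% ± 0.565 on the 4 autosomal arms pooled (SD, n = 2), a difference of 0.49 ± 0.44 percentage points. It was 0.81 in replicate 1 and 0.18 in replicate 2, and it turned negative when the sequence next to the centromeres was put back, at -0.66. Among the highest 50% of each list by score it was larger, at 2.19 percentage points. That cut set the same score limit for all arms of a list, and scores were higher on X. The larger value therefore cannot show a difference in coverage apart from score. Without the cut, the covered share of X lay above 3 of 4 arms in replicate 1 and 2 of 4 in replicate 2. Density was 44.6 ± 0.589 against 44.0 ± 0.247 clusters per Mb, and the difference was 1.13 in replicate 1 and -0.05 in replicate 2. Median length was 3018 ± 107 bp against 2940 ± 126 bp. The share of X in cluster-free stretches of 100 kb or more was 31.8% and 32.1% in the replicates, against 32.4% and 32.6%, and single arms ran from 24.0 to 40.9% in replicate 2. Clusters of 20 kb or more numbered 6.12 ± 0.346 per 10 Mb on X and 6.88 ± 0.319 on the autosomal arms. Single arms ranged from 4.44 to 12.4 in replicate 1. X lay above 3 of 4 arms in each replicate, and only 3R was higher, at 12.4 and 11.2.

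Close gaps, taken as those under 1 kb, were a smaller share on X than on each of the other arms, in each replicate. Gaps under 1 kb were 13.4% of X gaps in replicate 1 and 13.3% in replicate 2. On single autosomal arms they were 16.6 to 18.6% in replicate 1 and 17.6 to 20.4% in replicate 2, and no arm overlapped X. Pooled, the arms had 17.2% and 18.9%, and the difference averaged -4.67 ± 1.30 percentage points (SD, n = 2). The median gap was accordingly longer on X, at 4897 ± 182 bp against 4223 ± 210 bp, and X was above 4 of 4 arms in each replicate. At a limit of 0.5 kb X was below every arm in replicate 1 only. Such gaps were 7.63% on X in replicate 1, against 8.27 to 10.3% on single arms. In replicate 2 they were 8.21% on X, against 7.98 to 10.2%. Gaps of 5 to 10 kb were 16.7% of X gaps in the combined list and 11.6 to 14.8% on single autosomal arms. Among the highest 50% of each list by score the difference in close gaps came to -0.0075. Leaving out clusters makes new gaps, so this value cannot show whether spacing differs among high-scoring clusters. The difference in close gaps was chosen for description after the values were seen and was not tested, since blocks and clusters are not replicates.

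At each percentile compared, scores were higher on X than on the autosomal arms in each replicate. The 5th percentile of score was 0.46 and 0.48 on X in the replicates, against 0.30 and 0.29 on the autosomal arms, and the 95th was 2.53 and 2.52 against 2.38 and 2.34. At the 5th, 25th, 50th, 75th and 95th percentiles X exceeded 4 of 4 arms in each replicate, by 0.16 to 0.19 against the pooled arms as a mean of the replicates. At the median the difference was 0.19 ± 0.02 (SD, n = 2). Among the highest 50% of each list by score it came to 0.0137, less than the SD between replicates. That cut set the same lower score limit for X and the autosomal arms of a list. It selects on the value compared, so it cannot show whether high scores differ. By length class the difference in median score was 0.16 in replicate 1 and 0.19 in replicate 2 under 2 kb, 0.15 and 0.19 at 2 to 5 kb, 0.11 and 0.14 at 5 to 10 kb, and 0.08 and 0.06 at 10 to 20 kb. At 20 kb or more the replicates went opposite ways, at -0.05 and 0.16 over 13 and 12 X clusters. X thus had higher scores at these percentiles and a smaller share of gaps under 1 kb than the autosomal arms. Whether these 2 differences are linked was not tested.

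**Figure D5:**
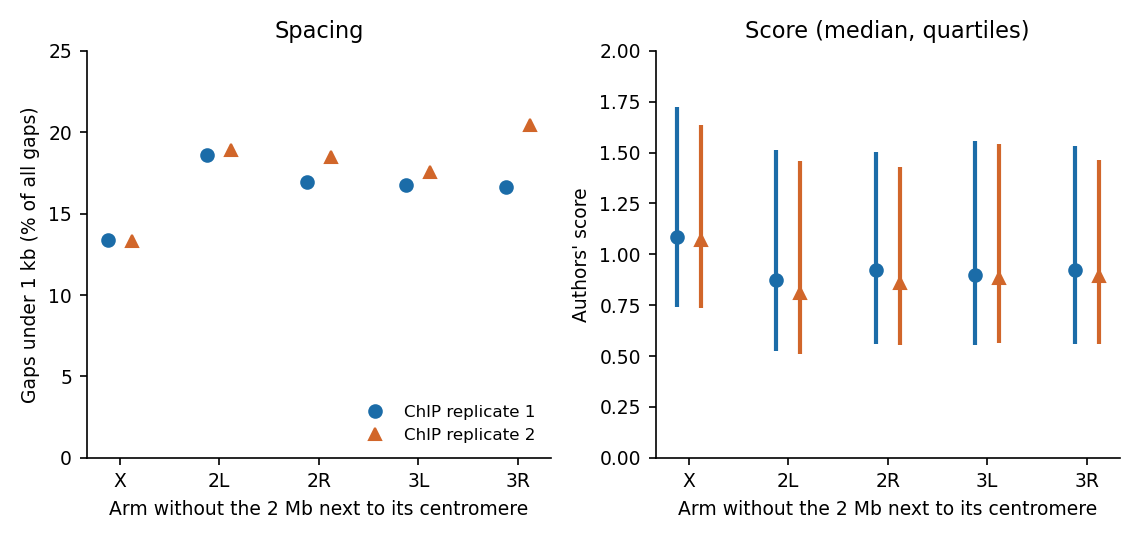
Share of gaps under 1 kb (left, % of all gaps) and the authors' score (right, symbol at the median, bar from the 25th to the 75th percentile over clusters) on X and each autosomal arm, for each ChIP replicate. X has the lowest share of close gaps, 13.4% and 13.3%, and the highest median score, 1.09 and 1.07, of the 5 arms in each replicate.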

How the data were processed

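H3K36me2 ChIP-seq in ML-DmBG3-c2 cells was read from 3 lists of regions: 1 for each of 2 ChIP replicates and 1 combined list. Each deposited region has a start and an end, 1-based on FlyBase r5 per the file headers, and a score written by the authors, of unstated scale. The submitters' processing notes name Bowtie 0.12.7. Which program and threshold called regions, how reads were filtered, which input was used and how replicates were combined: not given in the sources used here. Input samples enter only through that processing. The lists hold no read counts, so depth is unknown. Nothing says whether the replicates were separate cultures, so their spread may be technical.

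Rows named as depletion were left out. Covered share is summed cluster length over window length; a gap is the bases between neighbouring clusters; overlap counts from 1 bp. Where several replicate clusters overlapped a combined cluster, the score and length of the most overlapping one were taken. Python 3.11.15, numpy 2.4.6, pandas 2.3.3, SciPy 1.17.1 and matplotlib 3.10.9 were used, and the interval functions were checked on simulated intervals. No test over samples was run. The regions named are the 10 longest X clusters, the 5 highest-scoring covered over 50% of their length in both replicates, the 3 most and 3 least covered blocks, the 5 longest cluster-free stretches, runs, and clusters in neither list; the short high-scoring clusters, the count of shared scores and the gap comparison were added after their values were seen. The X clusters and these rules were chosen with earlier results of these data known. The gene table at hand is of release 6, so its positions were not used.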

Additional observations from a re-analysis of the deposited data

How the results depend on the processing

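No paired analysis was possible because only the ChIP group has lists and no result comes from a test. A value counts as moved here when it changed by more than 1 SD of the replicates (a count by over 1.5 times), and of 89 alternatives 41 stayed within that. The highest 50% of each list by score gave a covered share of 18.6% and 28.6 clusters per Mb. The median length was 4627 bp, the median gap 9457.5 bp and the median score 1.41. Clusters of 10 kb or more held 39.5% of the covered sequence, and cluster-free stretches took up 41.1% of X. The share in both replicates was 77.1%, counted against replicate lists that were cut in the same way. Against the uncut replicate lists, 97.3% of clusters in the highest 25% of X scores were in both. The share was 97.7% in the 25% of X scores just below. With the cut at 50%, X minus autosomal arms was 2.19 percentage points covered, 0.0137 in median score and -0.0075 in close gaps. The limit was the median score of each whole list, so the share of X clusters kept need not be 50%. Keeping clusters of at least 1301 bp gave 48.8 per Mb, 3083 bp, a gap of 4348 bp, 30.6% cluster-free, a score of 0.90 and 77.2% in both. Merging below 1 kb gave 43.6 per Mb, 3409.5 bp, a gap of 4930 bp, 40.9% in clusters of 10 kb or more and 28 of 20 kb or more; merged clusters carry no score. Leaving out 1 Mb at the centromere gave 50.4 per Mb and 31.0% cluster-free, and turned the difference in covered share from X to the autosomal arms to -0.11. Leaving out nothing gave 49.5 per Mb, 32.3% and -0.66; the cause was not tested. Domains numbered 36 at 15 kb and 6 at 30 kb, and stretches of 50 kb or more took up 44.0% of X. Of the alternatives chosen after seeing the data, the combined list put the score difference at 0.17, and a gap limit of 500 bp put the close-gap difference at -1.55.

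Each replicate alone gave a covered share of 19.6 to 21.0%, 44.2 to 45.0 clusters per Mb, a median length of 2942 to 3094 bp and a gap of 4768.5 to 5026 bp. Clusters of 10 kb or more held 28.4 to 29.6%, cluster-free stretches 31.8 to 32.1%, the median score was 1.07 to 1.09, and 87.3 to 92.1% of clusters overlapped the other replicate. Unknown depth limits what an absent cluster shows.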
